A study of Mus musculus with 14 samples.

Results

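Group 6 of the liver nuclei, a T and NK cell-like group, is described here by its genes. It is 1 of 12 numbered groups into which the authors sorted nuclei from livers of mice with nonalcoholic steatohepatitis (NASH), and the table gives it 2 columns, the mean level of each gene in knockout (KO) and in wild-type nuclei. Of 21911 genes with a name of their own in the table, 15611 were above 0 in group 6: 14560 in KO nuclei and 13803 in wild-type nuclei, with 12752 in both. A level is the mean number of unique molecular identifiers (UMIs, 1 per captured RNA molecule) after each nucleus was scaled to 10000, so it is a share of the RNA of a nucleus and not a count.

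T cells recognise antigen through a receptor of paired variable chains that signals through the CD3 chains and the zeta chain Cd247. The kinase Lck phosphorylates these chains, and adaptors such as Skap1 carry the signal to integrins and the cytoskeleton. Natural killer (NK) cells lack that receptor but share Cd247, many kinases and the killing machinery, and they read activating and inhibitory receptors such as Ncr1 and the Klr lectins. In steatohepatitis, CD8 T cells, CD4 T cells, NK and NKT cells gather in the liver beside macrophages, and Ms4a7, the gene that was knocked out, encodes a membrane protein of macrophages.

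The nuclei came from Ms4a7 KO and wild-type mice fed a NASH diet for 22 weeks, with 1 library per genotype that pooled sorted nuclei of 3 livers. Bulk liver RNA was measured in 12 libraries, 3 in each of 4 groups by the labels: Ms4a7 KO and wild-type mice on the same diet, and wild-type mice on chow with healthy livers that received lipid droplets (LD) or phosphate-buffered saline (PBS) by tail vein for 6 days. The labels do not say which bases of Ms4a7 are deleted, in which cells, or whether bulk libraries come from separate mice. Pooling leaves no replicate of the nuclei, so no difference between KO and wild-type nuclei has a test, and the number of nuclei in group 6, their depth, their barcodes and the handling of doublets are not given in the sources used here.

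Ms4a7 itself went against the bulk labels. It was 118 ± 17.01 normalised counts in the libraries labelled KO and 19.6 ± 8.67 in those labelled wild type (SD, n = 3 libraries each), and 9.14 ± 1.46 in those labelled LD and 103 ± 52.9 in those labelled PBS. Ms4a7 thus differed by 2.63 ± 0.37 log2 units (SE, limma adjusted p = 0.0149) in the first comparison, a call that was lost without replicate 2 or 3 labelled KO (adjusted p up to 0.063), and by -3.26 ± 0.39 (limma adjusted p = 0.00428) in the second. The table that the labels give to KO and wild-type mice on the NASH diet is named for LD and heads its columns as treated and untreated, and the table that they give to LD and PBS is named for Ms4a7. The 2 tables may thus be exchanged, in which case the diet, genotype and treatment of every bulk value here would be those of the other pair of groups. The labels are kept, and each bulk value is given for "the libraries labelled" so. In nuclei Ms4a7 was highest in group 3, at 0.622 in KO and 1.25 in wild-type nuclei, and it was at 0 in group 6 of both genotypes, so group 6 offers no check of the genotype labels.

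Every one of the 5 marker genes put group 6 apart from the other groups. Skap1, an adaptor that links the T cell receptor to integrin adhesion, stood at 36.6 in KO and 34.1 in wild-type nuclei of group 6, against at most 1.49 in KO and 0.497 in wild-type nuclei of any other group. Cd247, the zeta chain, stood at 7.77 in KO and 8.55 in wild-type nuclei, against at most 0.104 and 0.110. Bcl11b, a transcription factor that commits progenitors to the T lineage, stood at 9.95 in KO and 8.54 in wild-type nuclei, against at most 0.324 and 0.397. The plot of markers by nucleus group shows this gap on a log axis. Cd226, an activating receptor of T and NK cells, stood at 13.1 in KO and 11.4 in wild-type nuclei, against at most 0.887 and 1.04, both in group 10. Lck stood at 5.82 in KO and 5.64 in wild-type nuclei, against at most 0.271 and 0.133. The label therefore fits its markers, although these genes are among those by which nuclei are sorted into groups, so the gap is a description and not a test.

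**Figure D1:**
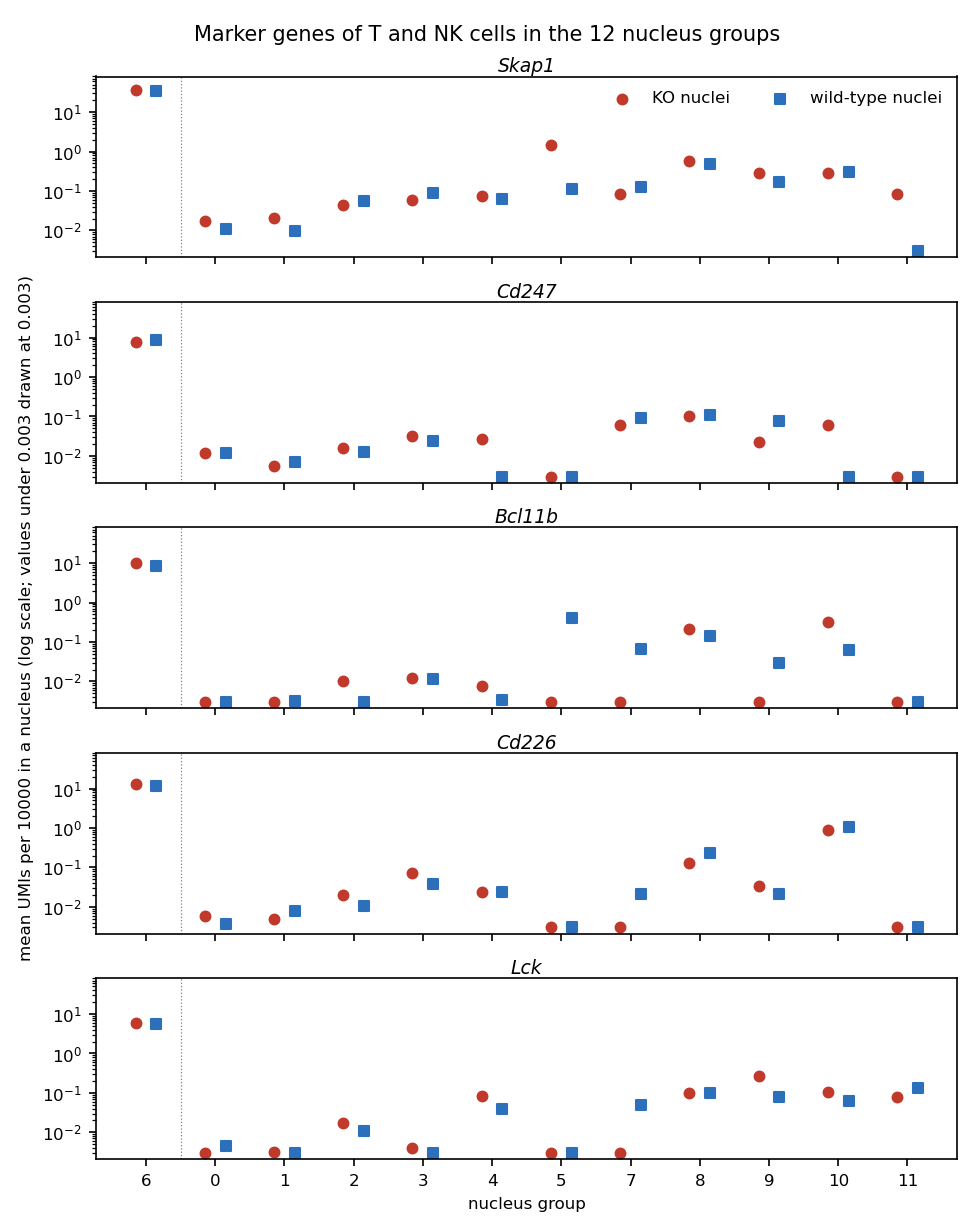
Mean UMIs per 10000 in a nucleus (log scale) of Skap1, Cd247, Bcl11b, Cd226 and Lck in the 12 nucleus groups, group 6 at the left, with 1 point per genotype (KO circles, wild-type squares) and no error since each is 1 pooled library. In every panel both points of group 6 lie above all others, from 36.6 and 34.1 for Skap1 to 5.82 and 5.64 for Lck.

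Markers of other cells were scarce in group 6 with 1 exception. The summed level of 14 macrophage markers was 1.97 in KO and 2.15 in wild-type nuclei of group 6, against 76.7 and 58.2 in group 3, and Trem2 was at 0 in both. Sums over markers of neutrophils (0.334 in KO, 0.307 in wild type), B and plasma cells (1.43, 2.23), dendritic cells (1.67, 2.01) and endothelium (2.69, 3.93) were similarly low. Hepatocyte markers were not low: 12 of 12 were above 0, with a sum of 97.8 in KO and 47.8 in wild-type nuclei of group 6. Over the other 11 groups that sum ran between 28.4 and 233 in KO and between 12.9 and 132 in wild-type nuclei, so group 6 lay inside a range that every group shared.

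The upstream sequences of 4 genes that define the group are given because they lead it together: a receptor chain (Cd3e), the zeta chain (Cd247), the kinase (Lck) and the NK receptor (Ncr1). Each is the 250 bases before the first start site of the RefSeq table (build GRCm38.p6), read 5′ to 3′ on the gene's strand. Capitals mark matches on either strand to TGTGGT or ACCACA, the core letters bound by RUNX factors, and to GGAAGT or ACTTCC, those bound by ETS factors. Cd247 is at chr1:165788431-165788680, plus strand; Cd3e at chr9:45009612-45009861, minus strand; Lck at chr4:129573642-129573891, minus strand; and Ncr1 at chr7:4337465-4337714, plus strand.
Cd247: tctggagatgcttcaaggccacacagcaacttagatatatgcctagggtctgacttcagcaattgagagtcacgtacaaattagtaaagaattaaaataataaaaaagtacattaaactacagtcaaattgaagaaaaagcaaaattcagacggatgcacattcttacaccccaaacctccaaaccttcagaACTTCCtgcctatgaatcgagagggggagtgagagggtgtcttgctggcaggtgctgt
Cd3e: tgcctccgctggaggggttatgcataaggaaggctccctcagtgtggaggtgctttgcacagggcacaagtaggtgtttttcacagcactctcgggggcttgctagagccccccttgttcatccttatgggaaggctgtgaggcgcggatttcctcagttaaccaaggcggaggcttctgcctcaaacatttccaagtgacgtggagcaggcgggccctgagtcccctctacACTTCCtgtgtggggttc
Lck: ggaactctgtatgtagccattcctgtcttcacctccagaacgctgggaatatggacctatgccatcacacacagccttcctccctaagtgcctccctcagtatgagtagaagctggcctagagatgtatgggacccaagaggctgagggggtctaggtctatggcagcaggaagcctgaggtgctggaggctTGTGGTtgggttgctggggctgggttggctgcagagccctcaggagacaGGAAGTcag
Ncr1: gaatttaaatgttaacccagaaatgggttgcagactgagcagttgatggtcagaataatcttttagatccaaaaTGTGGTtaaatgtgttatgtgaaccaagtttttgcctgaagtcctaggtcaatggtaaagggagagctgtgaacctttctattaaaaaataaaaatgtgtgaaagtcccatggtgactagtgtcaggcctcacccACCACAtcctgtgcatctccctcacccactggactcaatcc

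How often these letters occur was counted over all genes with an entry, without a test. Of 217 genes that lead group 6 and have an entry, 32 held the RUNX letters (14.7%), against 8.69% of 1347 other genes among its 2000 highest and 14.2% of all 27025 genes of the table. The ETS letters were in 21.7% of the leading genes, 21.4% of those other genes and 19.99% of all. The TCF/LEF letters CTTTGA or TCAAAG were in 10.6%, 7.94% and 14.1%. A match describes these letters in this window and says nothing about binding.

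Among the 2000 genes with the highest mean level in group 6 (at least 1.21), 296 were higher there than in each of the other 11 groups in both genotypes, 14.8%, and these are called leading genes. They held 13.7% of the summed level of group 6 in KO and 13.1% in wild-type nuclei. Only 71 of the 296 were at least 2 times the next group in both genotypes, and 35 were at least 10 times it on the mean of the genotypes. Of 176 genes on 11 lists for T and NK cells, 84 were among the 2000 and 46 of these were leading genes (54.8%). Counted over all 176 without the limit on level, 96 were highest in group 6 in both genotypes. Since nuclei were sorted into groups by such genes, these shares describe the group.

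The antigen receptor was the most exclusive part. All 12 genes of the receptor and CD3 list were highest in group 6, with a sum of 23.8 in KO and 21.3 in wild-type nuclei against at most 0.878 and 0.234 in another group. Trbc2, a constant region of the beta chain, had the largest ratio to the next group, a factor of 100, at 3.72 in KO and 2.89 in wild-type nuclei. Cd3e stood at 1.89 in KO and 1.66 in wild-type nuclei, Cd3d at 1.505 and 1.16, and Cd3g at 1.94 and 1.53. Single genes of the gamma-delta receptor were low: Trdc stood at 0.0754 in KO and 0.109 in wild-type nuclei and Tcrg-C1 at 0.228 and 0.154. As means of both genotypes, Tcrg-C1, Tcrg-C2 and Tcrg-C4 stood at 0.191, 0.293 and 0.396, and Trac, the constant region of the alpha chain, at 1.06. Tcrg-C1 and its copies can share reads.

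Proximal signalling genes followed. Of 20 such genes, 15 were among the 2000 and 11 were leading. Besides Skap1 and Lck, Themis, a regulator of receptor signal strength, stood at 14.9 in KO and 11.99 in wild-type nuclei. The phosphatase Ptpn22, which damps the signal, stood at 11.2 in KO and 8.52 in wild-type nuclei. Others in the list were shared with further groups: the adaptor Lcp2 stood at 6.36 in KO and 4.96 in wild-type nuclei of group 6, against 11.3 in KO nuclei of group 5 and 6.73 in wild-type nuclei of group 3. The kinase Fyn stood at 11.5 in KO and 11.4 in wild-type nuclei of group 6, against 12 and 10.9 in group 4.

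Coreceptors and surface molecules showed both helper and killer T cell genes. Cd4 stood at 0.757 in KO and 0.994 in wild-type nuclei, Cd8a at 1.38 and 0.940, and Cd8b1 at 0.962 and 0.920. Cd5 and Cd6, a pair of linked scavenger-type receptors that tune the T cell receptor, stood at 1.70 and 1.85 in KO and at 1.83 and 1.87 in wild-type nuclei. Of 17 genes on the surface list, 13 were highest in group 6 in both genotypes, among them the costimulators Cd28, Cd27 and Icos, at 2.05, 1.33 and 1.45 in KO and 1.52, 1.34 and 1.38 in wild-type nuclei. Slamf7, a receptor also carried by plasma and dendritic cells, was not: it stood at 1.497 in KO and 0.941 in wild-type nuclei of group 6, against 3.74 in KO and 4 in wild-type nuclei of group 10.

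NK genes were present beside these, and a mean over nuclei cannot show whether the same nuclei carried both. Ncr1, a receptor almost specific to NK cells and related innate cells, stood at 1.17 in KO and 1.92 in wild-type nuclei. Klrk1, the NKG2D receptor, stood at 4.08 in KO and 3.68 in wild-type nuclei, and Klrd1, the partner of NKG2 chains, at 2.82 and 2.43. Of 21 NK receptor genes 16 were highest in group 6. The sum over all 21 was not particular to it: 19.4 in KO and 21.6 in wild-type nuclei, against 19.6 in KO nuclei of group 5 and at most 12.3 in wild-type nuclei of another group. That list also holds the signalling chains and Fc receptor Fcer1g, Tyrobp and Fcgr3, which were not highest in group 6 in both genotypes. Their means there were 0.498, 0.348 and 0.0777. Which genes made up the sum of group 5 was not examined, so it does not show NK receptors in those nuclei. The 5 listed Klra genes, Ly49 receptors of mouse NK cells, were low, between 0.274 (Klra1) and 0.898 (Klra4) in KO and between 0.289 and 1.22 (Klra7) in wild-type nuclei, and as close copies they can share reads. Il2rb, the receptor chain for IL-2 and IL-15 on NK and memory T cells, stood at 4.26 in KO and 3.15 in wild-type nuclei.

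Of 15 genes for killing and effector molecules 10 were highest in group 6, and their sum was 12.4 in KO and 10.0 in wild-type nuclei, against at most 2.76 and 1.10 in another group. The chemokine Ccl5 stood at 3.93 in KO and 3.21 in wild-type nuclei, the granule protein Nkg7 at 1.64 and 1.26, Fasl, the death ligand, at 1.02 and 1.15, granzyme Gzma at 0.762 and 1.01, and perforin Prf1 at 0.339 and 0.220. Transcription factors gave a mixed set: Lef1 and Tcf7, factors of naive and memory-like T cells, stood at 6.05 and 2.12 in KO and at 6.54 and 3.26 in wild-type nuclei. Tbx21, the T-bet factor of type 1 responses, stood at 3.20 in KO and 3.02 in wild-type nuclei, and Gata3 at 1.63 and 1.38. Eomes, a factor of NK and memory CD8 T cells, was at 0.136 in KO and 0.198 in wild-type nuclei.

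Of 8 regulatory T cell genes 6 were highest in group 6, and their sum was 6.05 in KO and 7.31 in wild-type nuclei, against at most 1.77 and 1.51 in another group. Most of that sum was Ikzf2, the factor Helios that other T and NK cells also carry, a leading gene at 4.35 in KO and 6.19 in wild-type nuclei. Foxp3, which defines regulatory T cells, stood at 0.0493 in KO and 0.127 in wild-type nuclei, and Ccr8 and Lrrc32 were at 0 in both. Of 12 checkpoint and exhaustion genes 3 were among the 2000 highest, Btla at 1.25 in KO and 1.22 in wild-type nuclei, Entpd1 at 1.86 and 2.14, and Cd200r1 at 1.11 and 1.94, and the list's sum was highest in group 10. The inhibitory receptors Pdcd1, Lag3 and Tigit stood at 0.0849, 0.0543 and 0.0316 in KO and at 0.0809, 0.116 and 0.0296 in wild-type nuclei. Of 17 homing and residency genes 7 were among the 2000 highest and 3 were highest in group 6. Their sum was 42.2 in KO and 37.2 in wild-type nuclei, against at most 40.0 in KO nuclei of another group and 47.6 in wild-type nuclei of group 5. The integrin chain Itga4 stood at 11.7 in KO and 12.4 in wild-type nuclei, Itgal, a chain of LFA-1, at 6.58 and 5.47, and Cxcr6, a receptor of liver-resident lymphocytes, at 2.91 and 1.70. Cd69, a retention marker, stood at 0.456 in KO and 0.422 in wild-type nuclei, and Itgae, an integrin chain of resident T cells, at 0.209 and 0.339. Of 23 cytokine receptor and JAK-STAT genes 8 were highest in group 6. Among them were Il7r, the IL-7 receptor chain that sustains resting T cells, at 5.52 in KO and 6.45 in wild-type nuclei, and Stat4, which acts below IL-12, at 8.22 and 7.07. Of 19 cell cycle genes 0 were among the 2000 highest.

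**Figure D2:**
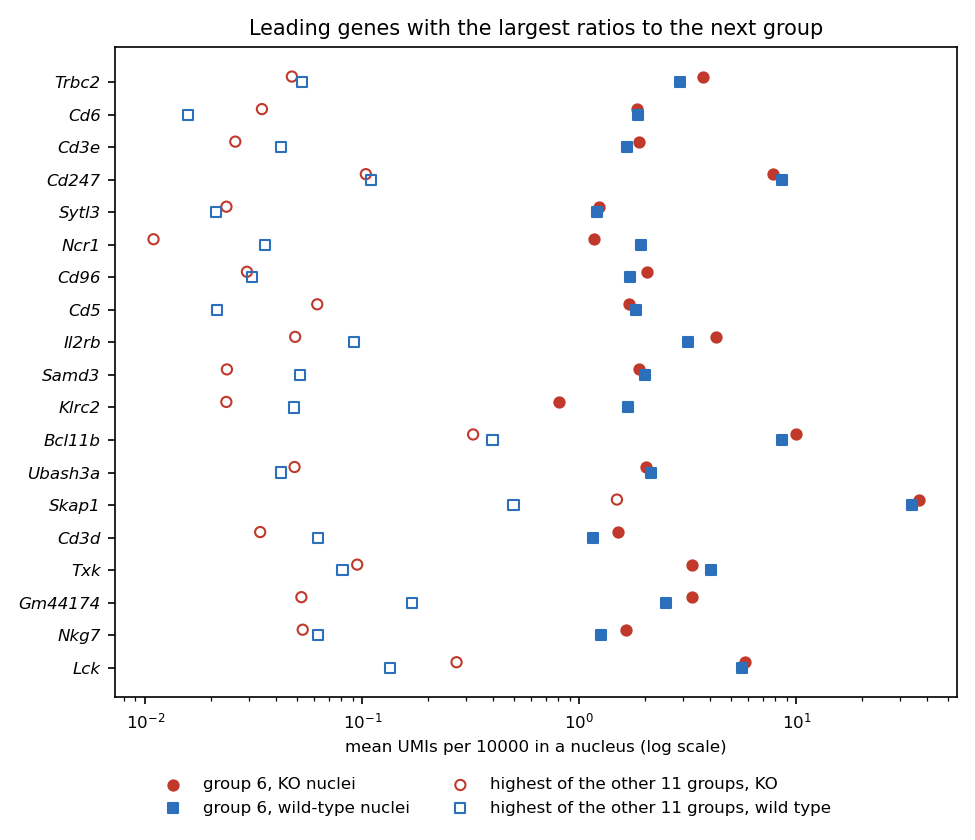
Levels (mean UMIs per 10000 in a nucleus, log scale) of 19 of the 20 leading genes with the largest ratio to the next group; filled points are group 6 (KO red circles, wild-type blue squares), open points the highest of the other 11 groups in the same genotype. All filled points lie at 0.803 (Klrc2 in KO nuclei) or above, and the open points lie below that, with Skap1, at 1.49 in another group, the exception.

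The plot of leading genes shows that ratio and level were different properties. By level the group was headed by transcripts that all nuclei carry, Malat1 (308 in KO, 306 in wild type) and mitochondrial messages such as mt-Co3 (59.4, 48.7), with Skap1 the ninth gene by mean level. Gm2682, a noncoding gene of unknown role, was the tenth, at 32.7 in KO and 34.6 in wild-type nuclei, and a leading gene with at most 1.10 and 1.07 elsewhere. Among leading genes at high level were also Inpp4b, a lipid phosphatase (24.6, 23.6), the splicing regulator Mbnl1 (41.1, 37.0) and the Rac activator Dock2 of leukocytes (26.8, 30.9). Other groups also carried them: Inpp4b reached 11.9 in KO and 14.3 in wild-type nuclei of group 9, and Dock2 21.9 and 24.4 there.

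Nuclear RNA is rich in unspliced transcripts, so long genes can collect more UMIs. Unspliced reads were not counted here, so this cause was not tested. Across the 294 leading genes placed on mm10, level and gene span had a Spearman rho of 0.41, and across the 1983 placed genes among the 2000 it was 0.28 (genes are not independent, and all share the same libraries). Per 10 kb of gene span the order changed: Skap1, which spans 295 kb (chromosome 11, 96464593 to 96759130), had 1.20 UMIs per 10000, and Trbc2, which spans 1.62 kb (chromosome 6, 41546730 to 41548352), had 20.4. Lck (chromosome 4, 129548344 to 129573641) had 2.26, Cd3d (chromosome 9, 44981786 to 44987339) 2.40 and Cd247 (chromosome 1, 165788681 to 165877277) 0.921 on this scale. Levels of different genes in the other paragraphs are not set per length and give no order between genes.

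Some leading genes were neighbours in the genome. Of the 294, 38 lay within 100 kb of another leading gene (12.9%), in 15 clusters. The same share over 10 other groups ran between 9.74% and 20.7%, so group 6 was inside it. The clusters held known families: Gimap8, Gimap4, Gimap6 and Gimap3, GTPases of lymphocyte survival (chromosome 6, 48647234 to 48770851), the NK receptors Klre1, Klrd1, Klrk1 and Klrc2 (chromosome 6, 129577905 to 129660689), and Cd3g, Cd3d and Cd3e (with Kmt2a, chromosome 9, 44803355 to 45009627). A further cluster on chromosome 19 (11443553 to 11531256) held Ms4a4b and Ms4a6b, relatives of Ms4a7. Ms4a4b, a membrane protein of T cells, stood at 11.5 in KO and 11.3 in wild-type nuclei, against at most 0.252 and 0.455 elsewhere, and Ms4a6b at 4.92 and 4.91.

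By overlap of their 2000 highest genes, group 9 was the nearest to group 6 (79.5% shared), followed by group 10 (71.8%), and group 0 was the farthest (55.7%). Group 9 held the highest sum of B and plasma cell markers, at 180 in KO and 167 in wild-type nuclei, and group 10 that of dendritic cell markers, at 63.5 and 48.9.

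The second question was which genes of group 6 differed between Ms4a7 KO and wild-type nuclei. Most genes lay close to equality: over the 2000 highest genes the median log2 ratio of KO to wild type was -0.02, with a middle range between -0.23 and 0.19. Ratios were taken after adding a pseudocount of 0.0143. At a line of 1 log2 unit (2-fold), 28 genes were higher in KO nuclei (1.4%) and 23 lower (1.15%), 2.55% in all. With 1 pooled library per genotype these are differences between these libraries only. Leading genes had 5 higher and 1 lower of 296 (2.03%), near that background, with a median of 0.07.

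**Figure D3:**
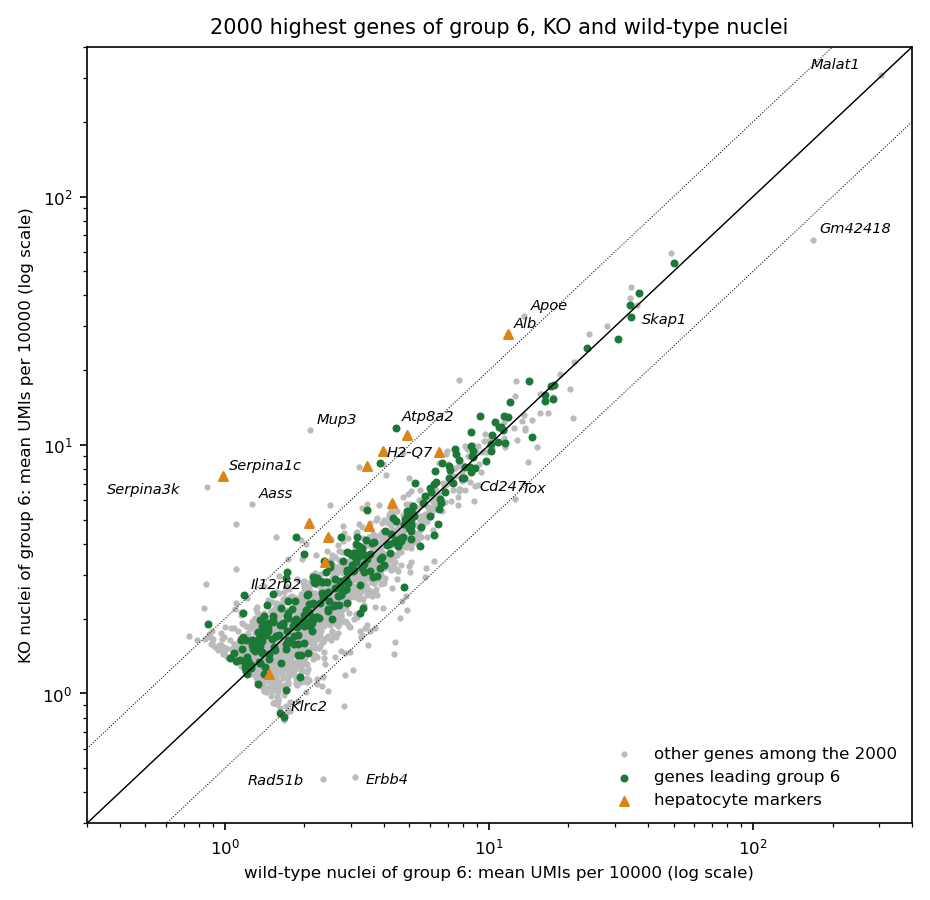
Each point is 1 of the 2000 highest genes of group 6, with its mean UMIs per 10000 in KO nuclei (vertical) and wild-type nuclei (horizontal), both log scales; the solid line marks equality and the dotted lines 2-fold. Leading genes (green) hug the line, apart from 6 past it, while several hepatocyte markers (orange) lie above it, with Alb at 28.0 in KO and 11.8 in wild-type nuclei.

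The genes highest above the line were secreted proteins and enzymes of hepatocytes. The protease inhibitor Serpina3k stood at 6.76 in KO and 0.852 in wild-type nuclei (log2 ratio 2.97), and Serpina1c, an alpha-1-antitrypsin gene, at 7.50 and 0.983 (2.91). Mup3, a major urinary protein, stood at 11.5 in KO and 2.10 in wild-type nuclei (2.44), and Rbp4, the retinol carrier, at 4.80 and 1.10 (2.11). Albumin, Alb, stood at 28.0 in KO and 11.8 in wild-type nuclei (1.25), and the apolipoprotein Apoe at 33.1 and 13.6 (1.28). Serpina and Mup genes have near-identical relatives, so their reads may be split between copies. Of 12 hepatocyte markers, 6 were past the line, all higher in KO, and the median of the list was 0.98.

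These ratios were not peculiar to group 6. Of the 28 higher genes, 22 had the same sign in all 11 other groups, and 19 passed the line in the median of those groups: Serpina3k had a median of 2.76 there (2.01 to 3.12) and Alb of 1.19 (0.23 to 1.53). The sum of hepatocyte markers was 2.05 times as high in KO as in wild-type nuclei of group 6, and between 1.30 and 2.34 times in the others. By where they peaked, 8 of the 28 were highest in group 1, 4 in group 0, 11 in group 5 and 5 in group 6. The part of RNA from hepatocytes in these ratios was not tested.

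Genes on the low side showed the same sharing to a lesser degree. Erbb4, a receptor kinase that is high in group 7, stood at 0.460 in KO and 3.12 in wild-type nuclei of group 6 (-2.72), with a median of -2.54 in the other groups. In group 7 itself Erbb4 hardly differed, at 51.8 in KO and 53.5 in wild-type nuclei (-0.05). Rad51b, a DNA repair gene, stood at 0.454 in KO and 2.34 in wild-type nuclei (-2.33; median elsewhere -1.90), and Gm42418, a noncoding gene, at 67.1 and 169 (-1.33; -1.17). Of the 23 lower genes, 9 had the same sign in all 11 other groups and 3 passed the line in their median. Others named by rank were Cyp3a25 (-1.64), Sorbs2 (-1.58), Gm29966 (-1.44), Lrmda (-1.29), Cers6 (-1.26), Psd3 (-1.25), Cdk8 (-1.19), Pde4d (-1.18), Cp (-1.14), Mug2 (-1.12) and Pbx3 (-1.08), of which only Cdk8 had its highest level, as a mean of both genotypes, in group 6.

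**Figure D4:**
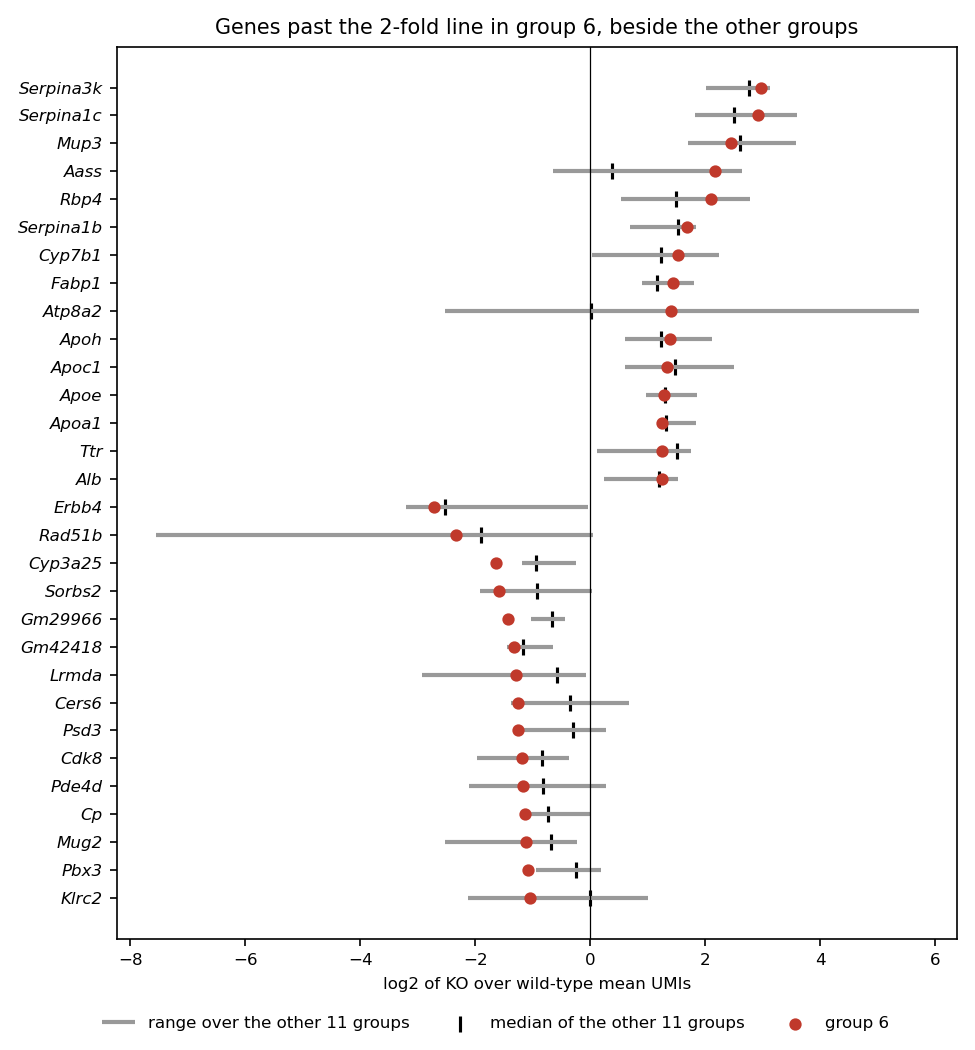
Log2 ratio of KO to wild-type nuclei for the 15 genes per direction farthest past the 2-fold line in group 6 (red points), beside the range (grey bars) and median (black ticks) of the same ratio over the other 11 groups. The red points of 27 of the 30 genes lie inside the grey bars, and those of Cyp3a25 (-1.64), Gm29966 (-1.44) and Pbx3 (-1.08) lie outside, below them. Aass (2.17 against a median of 0.38), Atp8a2 (1.40 against 0.01) and Klrc2 (-1.04 against 0) lie inside wide bars but far from the ticks. The bars and ticks of Atp8a2 and Klrc2 come from low or 0 levels in the other groups.

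A smaller set lay at least 1 log2 unit from the median of the other groups. When the median ratio of the other 11 groups was taken off, a step chosen after seeing the data, 16 genes were higher and 3 lower, and of the 28 and 23 genes past the line 4 and 2 remained. The ratios of all 6 in group 6 were inside the range over the other groups. For Atp8a2, Il12rb2, Ifngas1 and Klrc2 that range and median come from low or 0 levels. They cannot show whether the ratio of group 6 is shared. In Atp8a2 the lowest ratio came from 0 in KO and 0.0681 in wild-type nuclei of group 11, and the highest from 0.737 and 0 in group 5. Aass, an enzyme of lysine breakdown, stood at 5.77 in KO and 1.27 in wild-type nuclei of group 6 (2.17, and 1.79 after that step; range elsewhere -0.65 to 2.64). Atp8a2, a phospholipid flippase, stood at 11.7 in KO and 4.43 in wild-type nuclei (1.40; range elsewhere -2.52 to 5.71), against at most 0.737 and 0.440 in other groups. Il12rb2, the chain that makes T and NK cells responsive to IL-12, stood at 2.49 in KO and 1.18 in wild-type nuclei (1.07; range elsewhere -0.49 to 1.86), against at most 0.442 and 0.263 in other groups. Both Atp8a2 and Il12rb2 are leading genes. A further gene was Ifngas1: this noncoding gene beside the interferon gamma gene stood at 1.91 in KO and 0.862 in wild-type nuclei (1.13; range elsewhere -0.61 to 2.08). Lower were Klrc2, an activating NKG2 receptor chain, at 0.803 in KO and 1.67 in wild-type nuclei (-1.04; range elsewhere -2.13 to 1.01), and Gas7 at 0.931 and 1.88 (-1.01; -1.51 to 0.66).

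The remaining leading genes past the line were the class I genes H2-Q7 (8.48 in KO, 3.87 in wild type) and H2-Q4 (4.27, 1.86). They are close copies that can share reads, and their median ratios elsewhere were 1.28 and 0.76, near the 1.13 and 1.20 of group 6. Ifngas1, Gas7, the Gimap genes and both H2-Q genes fall outside the naming rule and were chosen after their values were seen. Ms4a4b and Ms4a6b, given as relatives of Ms4a7, fall outside it as well.

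Over the 84 genes of the T and NK lists among the 2000, the median ratio was 0.12, and 3 passed the line (3.57%), Il12rb2 higher and Tox and Klrc2 lower. Of all 2000 genes 2.55% passed it, with a median of -0.02, so the share on the lists was near that background. Tox, a factor of T cell exhaustion and of lymphoid development, stood at 6.06 in KO and 12.5 in wild-type nuclei (-1.04), with a median of -0.41 in other groups, where its level reached 8.05 and 10.7 in group 0. Receptor and CD3 chains had 5 of 6 tested genes higher in KO and 0 past the line (median 0.31). Signalling genes had 10 of 15 higher (median 0.05), and lymphoid transcription factors 9 of 19 (median -0.11). Single transcription factors went both ways: Tcf7 stood at 2.12 in KO and 3.26 in wild-type nuclei (-0.62), Runx3 at 2.21 and 3.35 (-0.60), Runx1 at 18.1 and 12.7 (0.52) and Rora at 5.81 and 3.44 (0.75).

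Genes of type 1 activation below the level limit lay on both sides. Ifng itself stood at 0.395 in KO and 0.0460 in wild-type nuclei, and Cxcr3, a receptor for interferon-induced chemokines, at 0.958 and 0.455. Gzmb stood at 0.573 in KO and 0.242 in wild-type nuclei. On the other side, as given above, Gzma stood at 0.762 in KO and 1.01 in wild-type nuclei, Fasl at 1.02 and 1.15, and Eomes at 0.136 and 0.198. Ccr7, which guides naive T cells to lymph nodes and is not a gene of type 1 activation, was also lower in KO, at 0.190 and 0.465. The spread of ratios grew as level fell, from an interquartile range of 0.34 over the 500 highest genes to 0.62 over the next 2000 genes after the highest 2000, where 5.85% passed the line, so ratios of genes this low carry less weight.

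Bulk liver asked whether T and NK transcripts also differed in whole tissue. In bulk, fewer cells of a type and less RNA per cell cannot be told apart. Values are normalised counts, tests are limma on log2 of the value plus 1 with Benjamini-Hochberg adjustment over all genes tested, and p-values measure the spread between these libraries. Of 102 tested T and NK list genes, 20 were higher and 0 lower in the libraries labelled KO than in their wild-type counterparts (median 0.51), where 3.02% of 15827 genes were higher and 0.701% lower (median -0.02). DESeq2 called 31 higher and 1 lower, edgeR 21 and 0, and 45 had an unadjusted p under 0.05. Of all 15827 genes tested, 2960 had an unadjusted p under 0.05.

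The genes called were mainly not those of group 6. Of 40 tested list genes that were highest in group 6, 3 were higher (median 0.21), and of 62 that were not, 17 were (median 0.85). Of 7 receptor and CD3 chains limma, edgeR and DESeq2 each called 0, with 0 at an unadjusted p under 0.05. Of 11 tested genes at 10 times the next group or more, each of the 3 tools likewise called 0, with 0 at an unadjusted p under 0.05. Over all genes tested limma called 3.72%, so 0 among 7 or 11 genes cannot set them apart from the rest. Cd247 was 33.2, 22.5 and 21.9 in the 3 libraries labelled KO, against 16.97, 24.5 and 28.2 in those labelled wild type (log2 fold 0.15 ± 0.32 SE, limma adjusted p = 0.849). Trbc2 was 18.4, 30.7 and 28.8 in the libraries labelled KO, against 9.70, 36.2 and 30.6 in those labelled wild type (0.18 ± 0.50, limma adjusted p = 0.885). The groups overlapped in both genes, and 24.2% of all genes tested had no overlap.

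Of the other markers, Lck was 17.6 ± 11.8 in the libraries labelled KO and 18.4 ± 8.66 in those labelled wild type (SD, n = 3; -0.15 ± 0.52 SE). Skap1, Cd226 and Bcl11b were below the limit for a test, with means of 7.83, 12.5 and 2.35 in the libraries labelled KO and 10.1, 4.97 and 4.20 in those labelled wild type. Ccl5 went the other way from the called genes, at 62.7, 17.7 and 87.6 in the libraries labelled KO, against 125, 333 and 301 in those labelled wild type, and did not pass (-2.30 ± 0.61, limma adjusted p = 0.0881).

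Of the 20 that rose, 17 were higher in another nucleus group than in group 6 in at least 1 genotype. Fcer1g, a signalling chain of Fc and NK receptors, was 1246, 1719 and 2200 in the libraries labelled KO, against 291, 474 and 496 in those labelled wild type (2.03 ± 0.26, limma adjusted p = 0.0113), and its call held without any 1 library. The common cytokine receptor chain Il2rg was 280, 534 and 533 in the libraries labelled KO, against 13.3, 67.1 and 72.2 in those labelled wild type (3.38 ± 0.61, limma adjusted p = 0.0309), a call lost in 3 of 6 fits without 1 library, those without replicate 2 or 3 labelled KO or replicate 2 labelled wild type (adjusted p up to 0.101). The further genes included Lcp2, Vav1, Zeb2, Batf, Fcgr3, Tyrobp, Tnf, Ccl3, Cxcr4, Itgal, Itgb2, Nr4a1, Il21r, Jak3 and Stat3, with log2 folds between 0.56 and 2.86. The leading genes among them were Rasgrp1, which activates Ras below the T cell receptor, at 116, 164 and 203 in the libraries labelled KO, against 23.0, 32.3 and 42.9 in those labelled wild type (2.27 ± 0.30, limma adjusted p = 0.0122), and Ikzf1, the lymphoid factor Ikaros (1.94 ± 0.37, limma adjusted p = 0.0368). The call of Ikzf1 held without replicate 1 labelled wild type and was lost without any of the other 5 libraries (adjusted p up to 0.117), and that of Rasgrp1 was lost without replicate 2 labelled KO (0.0552). In nuclei of group 6, from 1 pooled library per genotype, the same 2 genes had log2 ratios of KO to wild type of 0.16 and 0.23. The 2 bulk tables may be exchanged, so the bulk folds and these ratios may not be of the same contrast.

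Macrophage markers moved with these calls: 10 of 13 tested were higher, and their summed level ran between 43959 and 72474 in the libraries labelled KO and between 6646 and 13575 in those labelled wild type, with none at 0 in all. Neutrophil markers also moved, with 2 of 4 tested higher and sums between 496 and 1077 in the libraries labelled KO and between 89.7 and 146 in those labelled wild type. The summed receptor and CD3 chains ran between 120 and 164 in the libraries labelled KO and between 69.1 and 147 in those labelled wild type. The part of these cells in the 20 calls was not tested. The 20 calls fell to 1 and 3 without replicate 2 or 3 labelled KO, to 13, 8 and 11 without replicate 1, 2 or 3 labelled wild type, and became 22 without replicate 1 labelled KO. Over all 296 leading genes, 253 were tested, with 11 higher and 1 lower (median 0.07). These calls were 4.74% of the 253, near the 3.72% of all 15827 genes tested.

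**Figure D5:**
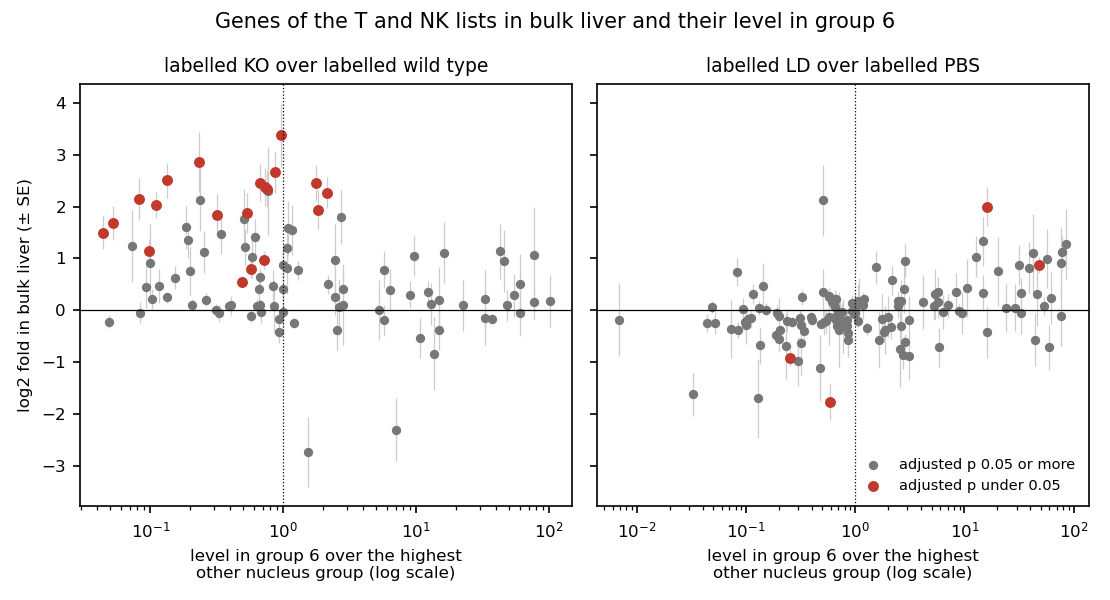
Log2 fold in bulk liver (vertical, ± SE from limma) of each tested gene of the T and NK lists against its level in group 6 over the highest other nucleus group (horizontal, log scale), for the libraries labelled KO over those labelled wild type (left) and labelled LD over labelled PBS (right), red where the adjusted p is under 0.05. Red points at the left lie mainly left of the dotted line at 1, among genes higher in another group; Lrrc32, at 0 in group 6, is not drawn.

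In the second table, labelled as healthy livers on chow, 2 of 130 tested list genes were higher and 2 lower in the libraries labelled LD than in the PBS ones (median -0.06), where 1.95% of 14900 genes were higher and 2.21% lower (median 0.00). Both shares are near that background. Zap70, the kinase recruited to the phosphorylated zeta chain, was 323, 301 and 246 in the libraries labelled LD, against 151, 146 and 171 in those labelled PBS (0.88 ± 0.16, limma adjusted p = 0.0174). Cd4 was 281, 171 and 97.3 in the libraries labelled LD, against 56.2, 39.7 and 31.0 in those labelled PBS (2.003 ± 0.38, limma adjusted p = 0.0229). Zap70 kept its call without replicate 3 labelled LD and lost it without any of the other 5 libraries (adjusted p up to 0.0866), and Cd4 kept it without replicate 3 labelled LD or replicate 1 labelled PBS and lost it in the other 4 fits (up to 0.102). Neither pair of groups overlapped, which also held for 25.4% of all 14900 genes tested and 14.6% of the 130 list genes. Both genes were among the 96 list genes highest in group 6.

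The lower genes peaked in other nuclei. Prdm1, a factor of effector and plasma cells, was 10.5, 13.0 and 16.6 in the libraries labelled LD, against 34.1, 57.7 and 52.8 in those labelled PBS (-1.76 ± 0.35). Ccr2, the monocyte homing receptor that some T and NK cells carry, was 152, 131 and 118 in the libraries labelled LD, against 258, 234 and 270 in those labelled PBS (-0.92 ± 0.16). In neither gene did the groups overlap, which also held for 25.4% of all genes tested. The calls were lost in 4 and 3 of 6 fits without 1 library (adjusted p up to 0.140 and 0.0731). Summed markers of other cells moved in the same libraries: those of cholangiocytes ran between 3851 and 7027 in the libraries labelled LD and between 9573 and 13345 in those labelled PBS. Stellate cell markers ran between 20947 and 22587 in the libraries labelled LD and between 29386 and 34860 in those labelled PBS, and dendritic cell markers between 9012 and 10416 and between 10729 and 12433. Their part in these results was not tested. Cd3e was 61.9, 38.0 and 45.5 in the libraries labelled LD, against 23.1, 18.9 and 21.9 in those labelled PBS, with no overlap, and did not pass (1.13 ± 0.31, limma adjusted p = 0.0789). None of the 4 tested receptor and CD3 chains passed with limma (0, and 0 with edgeR), DESeq2 passed 1, and 1 had an unadjusted p below the same 0.05. Of all 14900 genes tested, 2933 had such an unadjusted p. The 4 calls became 0 without replicate 2 or 3 labelled PBS or replicate 2 labelled LD, 1 without replicate 1 labelled LD, 3 without replicate 1 labelled PBS and 6 without replicate 3 labelled LD. Of 264 leading genes tested, 2 were higher and 1 lower (1.14% called), where 4.16% of all 14900 genes were called. The bulk tables were scaled separately, so levels are compared only within a table.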

How the data were processed

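The deposited single-nucleus signal values are means, made by the authors, of UMIs scaled to 10000 per nucleus, by group and genotype, with Cell Ranger and Seurat 4.0.1 on mm10 per the submitters' processing notes. The deposited bulk signal values are gene counts that the authors divided by a size factor per library, with STAR and DESeq2 per the same notes; 100% were whole multiples of 1 step within 0.01, giving 21945394 to 23126164 reads per library in the NASH table and 39318264 to 41346464 in the other. The authors' deposited log2 fold changes and p-values were not used. Annotation and read counter are not given in the sources used here. Read intervals are not given, and depth of nuclei is unknown.

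Computed here: 4 of 21915 entries with repeated names were left out; ratios used the 2000 genes of highest mean, a pseudocount at percentile 5 of values above 0 and a line of 1 log2 unit. Bulk genes at 10 or more in at least 3 of 6 libraries were tested with limma 3.58.1 (trend, 2-sided, log2 of value plus 1, R 4.3.3, threshold 0.05), without covariates. Alternatives used edgeR 4.0.16 and DESeq2 1.42.0 on recovered reads, another pseudocount, no filter, a replicate block and each library left out. Tests were tested on simulated data. Positions are from GENCODE and upstream sequences from RefSeq. Named genes are the 5 markers, list members, the 20 highest and 20 most exclusive genes and 15 per direction by ratio; some are not reported here. Members and 26 gene lists were chosen with earlier results of these data known. The groups are numbered by the authors without names.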

Additional observations from a re-analysis of the deposited data

How the results depend on the processing

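With 1 pooled library per genotype, unknown depth and an unknown number of nuclei, counts over nuclei depend on the limits set. Against 28 higher and 23 lower genes in KO nuclei among the 2000 highest of group 6, the counts past the 2-fold line were 20 and 10 among the 1000 highest, 97 and 71 among 4000, 2473 and 1920 without a filter on level (15611 genes, most near 0), and 16 and 3 once the median of the other 11 groups was taken off. Other pseudocounts, centring and rescaling gave 28 to 34 higher and 18 to 24 lower; centring moved the split most, to 34 and 18. Taking off that median turned the sign of Mup3 (-0.16), Apoc1 (-0.14), Apoe (-0.013), Apoa1 (-0.066) and Ttr (-0.26), by construction since all groups shared their rise. Against 296 leading genes, the counts were 71 at 2 times the next group or more, 467 by the mean of both genotypes, 185 among the 1000 highest and 459 among 4000. In bulk, DESeq2 called 919 higher and 322 lower genes in the libraries labelled KO (limma 478 and 111) and 555 and 666 in those labelled LD (290 and 330), with 32 and 8 T and NK list genes (20 and 4); the cause was not tested. Fits without 1 library gave 84 to 439 higher, 29 to 91 lower and 1 to 22 list genes for labelled KO, and 73 to 562, 61 to 664 and 0 to 6 for labelled LD. Without 1 library, Rasgrp1 lost its call in 1 of 6 fits and Ikzf1 in 5, and Zap70 lost it in 5 and Cd4 in 4. Deviations of libraries with the same replicate number had correlations of -0.03 to 0.12 and -0.04 to 0.13. So few values cannot decide whether the numbers pair libraries. A replicate block gave more calls than limma without it: 687 higher, 135 lower and 28 list genes for labelled KO, and 365, 428 and 5 for labelled LD.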
